A study of Mus musculus with 8 samples.

Results

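Integrins are the adhesion receptors through which T cells hold on to vessel walls, to other cells and to tissue matrix, and 10 of their genes were followed here in mouse Th1 and Th17 cells with and without Tet2. The 10 were chosen as integrin chains familiar from T cells, with earlier results of these data known. They are the alpha chains Itgae, Itga4, Itga6, Itgal and Itgav and the beta chains Itgb1, Itgb2, Itgb3, Itgb7 and Itgb8. Each was read from a probe set annotated with that symbol alone. Every one of the 10 had 1 such probe set, out of 19938 genes measured in all, so no choice between probe sets was needed. The series held 8 whole-transcript Affymetrix arrays in 4 groups of 2. Wild-type Th1 and Th17 cells came from Tet2(f/f) mice, and Tet2-deficient Th1 and Th17 cells from CD2(Cre)Tet2(f/f) mice, so both genotypes carried the floxed Tet2 alleles and only the latter also carried the Cre. CD2 elements drive Cre in lymphocytes at large, so loss of Tet2 was not restricted to the cultured subset. The culture conditions, ages and sexes of the mice are not given in the sources used here. The titles call the arrays of a group biological replicates, but nothing says that they came from separate animals, and p-values measure only the spread between these arrays.

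An integrin is a pair of 1 alpha and 1 beta chain, and the pairing sets what it binds. Itgal with Itgb2 makes LFA-1, which binds ICAM proteins and arrests T cells on endothelium. Itga4 pairs with Itgb1 or with Itgb7 to bind VCAM-1 or the gut addressin MAdCAM-1. Itgae with Itgb7 binds E-cadherin on epithelium. Itga6 with Itgb1 binds laminin, and Itgav with Itgb3 binds ligands such as vitronectin. Itgav with Itgb8 releases active TGF-beta from its latent form. TGF-beta in turn takes part in Th17 differentiation. Tet2 is an enzyme that oxidises methylated cytosine in DNA.

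The subsets were set apart by their defining cytokines in both genotypes. Ifng stood at 11.55 and 11.84 (log2 signal) on the wild-type Th1 arrays and at 5.97 and 6.03 on the wild-type Th17 arrays, while Il17a stood at 5.90 and 6.18 against 9.79 and 9.84. On the Tet2-deficient arrays Ifng read 10.43 and 10.18 (Th1) against 5.92 and 5.99 (Th17), and Il17a 6.0 and 6.14 against 9.41 and 8.87. Of the 5 Th1 markers, Ifng, Tbx21 and Il12rb2 were called lower in Th17 cells in both genotypes. Cxcr3 was not called in either. Il18r1 went the other way, called higher in Th17 cells by 0.87 in Tet2-deficient cells and not called in wild-type cells. The 4 Th17 markers measured were called higher in both genotypes. Ifng was lower in Tet2-deficient than in wild-type Th1 cells by -1.39 ± 0.14 (limma adjusted p = 0.00438), the 1 gene of all 19938 called in a genotype comparison. Markers of T cells lay above the median gene of their array in 32 of 32 values, against 0 of 24 for B cells, 0 of 64 for myeloid and dendritic cells and 0 of 32 for mast cells and basophils. Natural killer cell markers did so in 10 of 32 values, and their summed log2 level was 7.84 and 8.0 in wild-type Th17 arrays, 8.32 and 8.68 in Tet2-deficient Th17 arrays and 8.60 to 8.67 in Th1 arrays. Of the 4 markers, Ncr1 and Klrb1c lay below the median gene on all 8 arrays. Eomes, also a T cell transcription factor, lay above it on all 8 and was lower in Th17 than in Th1 cells by -1.33 (wild-type) and -1.40 (Tet2-deficient). Klrd1, a lectin-like receptor also found on activated T cells, was higher by 1.73 in Tet2-deficient Th17 than Th1 cells (limma adjusted p = 0.000207), and its Tet2-deficient minus wild-type difference within Th17 cells was 1.25 (adjusted p = 0.183). The part of natural killer cells in any integrin value was not tested. Tet2 itself differed between genotypes by -0.03 in Th1 and -0.14 in Th17 cells (log2, limma adjusted p = 0.982 and 0.99996). The floxed segment and the place of the probes are not given in the sources used here, so this is no check of the deletion. Xist, transcribed only in female cells, was high on 3 of the 4 Th17 arrays and between 4.80 and 5.15 on the other 5. It read 10.07 on wild-type Th17 replicate 2, and 8.60 and 11.27 on Tet2-deficient Th17 replicates 1 and 2. Eif2s3y, a gene of the Y chromosome, read 8.46, 9.36 and 4.33 on these arrays and 8.82 to 9.65 on the other 5. Wild-type Th17 replicate 2 and Tet2-deficient Th17 replicate 1 thus held RNA of both sexes. The sex of the donor mice was not balanced over the groups.

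Integrin genes differed between the T cell subsets, while no difference between Tet2 genotypes passed the test. In wild-type cells 4 of the 10 genes differed between Th17 and Th1 at an adjusted p under 0.05 in limma, which is 40% against 8.4% of all 19938 genes. Itga6 and Itgb7 were higher in Th17 cells, and Itgav and Itgb8 were lower. The same 4 passed in Tet2-deficient cells, each in the same direction, against 10.1% of all genes in that comparison and 5.12% that passed in both genotypes in 1 direction. The shares over all genes include genes of low signal, while most of the 10 lay above the median gene. Fitted alone, genes at or above the median signal gave 1149 higher and 420 lower calls in wild-type cells. Tet2-deficient cells gave 1374 and 531. Among such genes the share called was thus higher than over all genes. The 10 were chosen with earlier results of these data known, so the 40% is a description. Between genotypes 0 of the 10 passed in either subset.

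**Figure D1:**
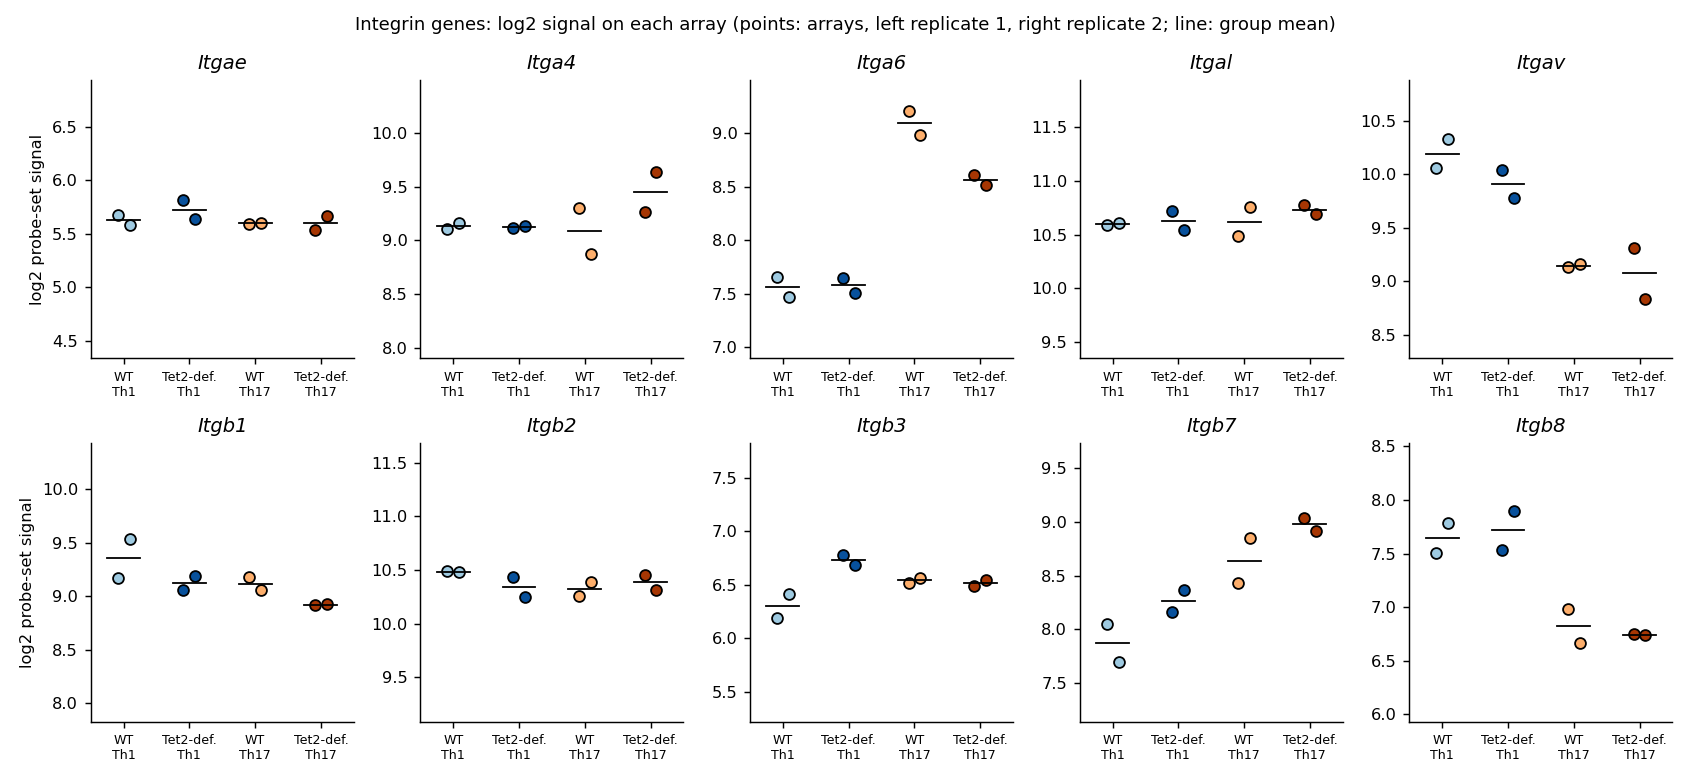
Deposited log2 signal (vertical axis) of each of the 10 integrin genes on the 8 arrays, by group (horizontal axis); points are arrays, lines are group means, and every panel spans the same log2 height. Itga6 and Itgb7 lie higher on the 4 Th17 arrays, Itgav and Itgb8 lower, and the other 6 genes show ranges of 0.24 to 0.76 over the 8 arrays.

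Itga6, the alpha chain of laminin-binding integrins, moved over the widest range of the 10 genes, 1.74 log2 units over the 8 arrays. Its log2 signal was 7.66 and 7.47 (wild-type Th1), 7.65 and 7.51 (Tet2-deficient Th1), 9.20 and 8.98 (wild-type Th17) and 8.61 and 8.51 (Tet2-deficient Th17). All 4 Th17 arrays lay above all 4 Th1 arrays, the Th1 groups overlapped fully, and the Tet2-deficient Th17 arrays lay below the wild-type Th17 arrays. Th17 cells exceeded Th1 cells 2.89-fold in wild-type cells (log2 difference 1.53 ± 0.13 SE, 95% interval 1.25 to 1.81, limma adjusted p = 1.51e-05), rank 51 of all genes by p. In Tet2-deficient cells the excess was 1.97-fold (0.98 ± 0.13, 0.70 to 1.26, adjusted p = 0.000441).

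Within Th17 cells the Tet2-deficient minus wild-type difference of Itga6 was -0.53 ± 0.13 (SE, 95% interval -0.81 to -0.25). It ranked 32 of all genes by p in that comparison but did not pass adjustment (limma adjusted p = 0.728). In Th1 cells the genotypes of Itga6 overlapped. The difference between these 2 Tet2 effects was -0.55 ± 0.18 (-0.95 to -0.16, limma adjusted p = 0.999), which did not pass. With the female share of RNA as a covariate, the Th17 difference was -0.46 with an adjusted p of 0.99981.

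Genes whose pattern over the 8 arrays was nearest to that of Itga6, by the root mean square difference between log2 values centred on each gene's mean, were Slc9a9 (0.137), Ccr4 (0.143) and Rbl2 (0.173). Slc9a9 encodes an endosomal sodium/proton exchanger, Ccr4 a chemokine receptor and Rbl2 a pocket protein of cell cycle control. Ccr4 stood at 9.67 and 9.74 (wild-type Th1), 9.87 and 9.42 (Tet2-deficient Th1), 11.32 and 11.35 (wild-type Th17) and 10.90 and 10.72 (Tet2-deficient Th17). As for Itga6, its Tet2-deficient Th17 arrays lay between its Th1 arrays and its wild-type Th17 arrays. These genes were picked by likeness out of all measured, and no test applies to it.

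Itgav and Itgb8, the chains of an integrin that activates latent TGF-beta, were both lower in Th17 than in Th1 cells. Itgav read 10.05 and 10.33 (wild-type Th1), 10.04 and 9.78 (Tet2-deficient Th1), 9.13 and 9.16 (wild-type Th17) and 9.31 and 8.84 (Tet2-deficient Th17). The lowest of its Th1 arrays lay above the highest of its Th17 arrays, and its 2 Tet2-deficient Th17 arrays spanned the wild-type pair. Th17 minus Th1 was -1.05 ± 0.17 for Itgav in wild-type cells (SE, 95% interval -1.41 to -0.69, limma adjusted p = 0.0021, a 2.07-fold lower signal) and -0.84 ± 0.17 in Tet2-deficient cells (-1.20 to -0.47, adjusted p = 0.00717, 1.78-fold lower). The latter call rested on particular arrays: without Tet2-deficient Th17 replicate 2 the difference was -0.60 (adjusted p = 0.0864), and leaving out replicate 1 of the Tet2-deficient Th1 arrays gave -0.70 (adjusted p = 0.0797). With the female share as a covariate it was -0.59 (adjusted p = 0.163), and with all probe sets tested the adjusted p was 0.0672.

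Itgb8, a chain known to pair with Itgav, read 7.5 and 7.78 (wild-type Th1), 7.54 and 7.90 (Tet2-deficient Th1), 6.98 and 6.66 (wild-type Th17) and 6.75 and 6.74 (Tet2-deficient Th17). Its Th1 and Th17 arrays were separate in both genotypes, while genotypes overlapped within each subset. Th17 minus Th1 of Itgb8 was -0.82 ± 0.15 in wild-type cells (-1.16 to -0.49, limma adjusted p = 0.00605, 1.77-fold lower) and -0.98 ± 0.15 in Tet2-deficient cells (-1.31 to -0.64, adjusted p = 0.00161, 1.97-fold lower). Leaving out wild-type Th17 replicate 2 gave -0.66 in wild-type cells with an adjusted p of 0.0764, and testing all probe sets gave 0.0758. In bulk RNA a lower signal from fewer cells that express a gene and from less RNA per cell cannot be told apart.

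**Figure D2:**
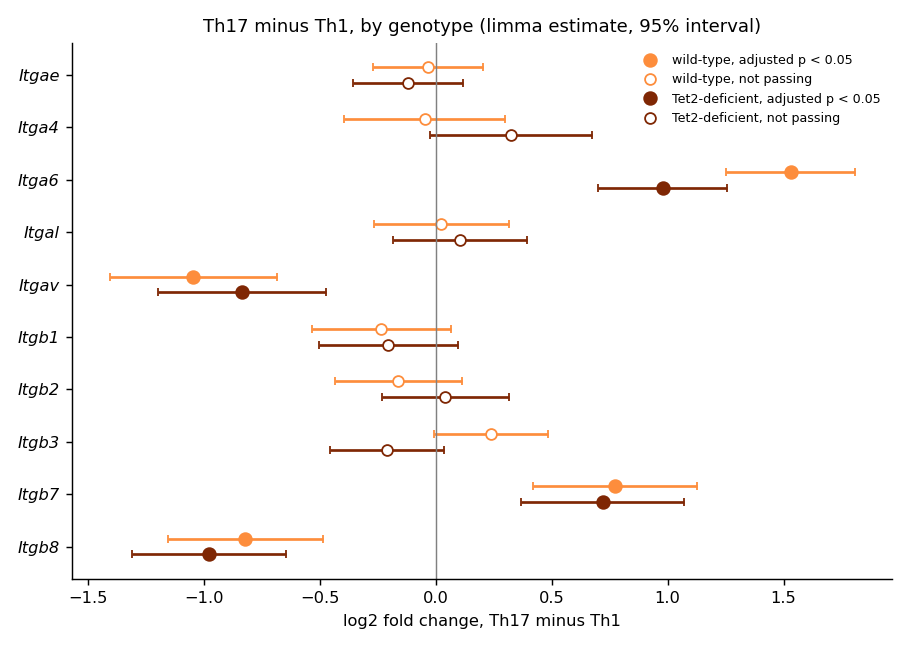
Th17 minus Th1 log2 difference (horizontal axis) of the 10 integrin genes, in wild-type and Tet2-deficient cells; points are limma estimates, bars their 95% intervals, and filled points passed an adjusted p of 0.05. Itga6 and Itgb7 lie to the right and Itgav and Itgb8 to the left in both genotypes, with 1.53 the highest and -1.05 the lowest estimate.

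Itgb3, which with Itgav forms the vitronectin receptor, had a low signal, above the median gene on 4 of 8 arrays. It read 6.19 and 6.41 (wild-type Th1), 6.78 and 6.68 (Tet2-deficient Th1), 6.52 and 6.56 (wild-type Th17) and 6.49 and 6.54 (Tet2-deficient Th17). Wild-type Th1 arrays were the lowest of the 8 and Tet2-deficient Th1 arrays the highest, with all Th17 arrays between them. Th17 minus Th1 was therefore 0.24 in wild-type cells (95% interval -0.01 to 0.49, limma adjusted p = 0.219) and -0.21 in Tet2-deficient cells (-0.46 to 0.04, adjusted p = 0.279), neither past the threshold. Markers of platelets, which also carry Itgb3, had a summed log2 level of 7.90 to 8.05 over the 8 arrays, with 13 of 32 values above the median gene.

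Itgb7, the beta chain of the gut-homing and the E-cadherin-binding integrins, was the other gene higher in Th17 cells. It read 8.04 and 7.69 (wild-type Th1), 8.16 and 8.36 (Tet2-deficient Th1), 8.43 and 8.85 (wild-type Th17) and 9.04 and 8.92 (Tet2-deficient Th17). The 4 groups followed each other without overlap in that order, although neighbours that differ only in genotype did not pass a test. Th17 cells exceeded Th1 cells 1.71-fold in wild-type cells (log2 difference 0.77 ± 0.16 SE, 95% interval 0.42 to 1.13, limma adjusted p = 0.0121) and 1.65-fold in Tet2-deficient cells (0.72 ± 0.16, 0.37 to 1.07, adjusted p = 0.0148). Of the 4 calls this was the least firm: without wild-type Th17 replicate 2 the wild-type difference of Itgb7 was 0.56 (adjusted p = 0.129), and without wild-type Th1 replicate 2 it was 0.59 (adjusted p = 0.0737). In Tet2-deficient cells the call was lost without Tet2-deficient Th17 replicate 1 (0.66, adjusted p = 0.125), without Th17 replicate 2 (0.78, adjusted p = 0.0536) and without Th1 replicate 1 (0.62, adjusted p = 0.126) and after adjusting for the female share of RNA (0.67, adjusted p = 0.145). With all probe sets tested Itgb7 had an adjusted p of 0.0956 (wild-type) and 0.0986 (Tet2-deficient).

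The alpha chains that pair with Itgb7 did not pass with it. Itga4 read 9.11 and 9.16 (wild-type Th1), 9.12 and 9.13 (Tet2-deficient Th1), 9.30 and 8.87 (wild-type Th17) and 9.26 and 9.64 (Tet2-deficient Th17). The Th1 arrays were close together and the Th17 arrays spread around them, with 1 Tet2-deficient array the highest. Its Th17 minus Th1 difference was -0.05 in wild-type cells (95% interval -0.40 to 0.30) and 0.32 in Tet2-deficient cells (-0.02 to 0.67, limma adjusted p = 0.236). Itgae, the chain that marks epithelial-resident T cells, lay between 5.54 and 5.81 and below the median gene on all 8 arrays. Its Th17 minus Th1 difference was -0.03 (-0.27 to 0.21) in wild-type and -0.12 (-0.36 to 0.12) in Tet2-deficient cells, at a signal too low to show that it was expressed.

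Itgb1, the most widely shared beta chain, which pairs with Itga4, Itga6 and Itgav, read 9.17 and 9.54 (wild-type Th1), 9.06 and 9.19 (Tet2-deficient Th1), 9.18 and 9.06 (wild-type Th17) and 8.92 and 8.93 (Tet2-deficient Th17). The last group was the lowest and the other 3 overlapped. Th17 minus Th1 of Itgb1 was -0.23 (-0.54 to 0.07) in wild-type and -0.20 (-0.51 to 0.10) in Tet2-deficient cells (limma adjusted p = 0.326 and 0.402).

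The LFA-1 chains stayed within narrow ranges. Itgal lay between 10.48 and 10.78 over the 8 arrays and Itgb2 between 10.25 and 10.49. Th17 minus Th1 of Itgal was 0.02 (95% interval -0.26 to 0.31) in wild-type and 0.10 (-0.19 to 0.39) in Tet2-deficient cells, and that of Itgb2 was -0.16 (-0.43 to 0.11) and 0.04 (-0.23 to 0.31). None of these 4 differences passed, and the intervals give the range of subset differences that the arrays leave for each gene. Arrays of Th1 and Th17 cells did not overlap for 6 of the 10 integrin genes in wild-type cells and for 7 in Tet2-deficient cells, against 52.2% and 57.5% of all genes.

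The effect of Tet2 was the study's question, since its design compares cells from mice with and without the Cre. In Th1 cells the 10 Tet2-deficient minus wild-type differences ran from -0.28 to 0.43 with a median of 0.03 (log2, all genes 0.01), and limma called 0 of 10 against 0.00502% of all genes. At an unadjusted p under 0.05 were 2 of the 10 and 1206 of all genes. Itgb3 differed by 0.43 ± 0.11 (SE, 95% interval 0.18 to 0.67, rank 50 of all genes by p, adjusted p = 0.797), with its arrays apart as given above. Itgb7 differed by 0.39 ± 0.16 (0.04 to 0.75, adjusted p = 0.809), Itgav by -0.28 ± 0.17 (-0.64 to 0.08) and Itgb1 by -0.23 ± 0.14 (-0.53 to 0.07). Genotypes did not overlap on the Th1 arrays for 4 of the 10 genes (Itgb3 and Itgb7 higher, Itgav and Itgb2 lower), against 33.3% of all genes.

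In Th17 cells the differences ran from -0.53 to 0.36 with a median of -0.01, and limma called 0 of 10 against 0% of all genes; 2 of the 10 and 824 of all genes were at an unadjusted p under 0.05. Beside Itga6, Itga4 differed by 0.36 ± 0.16 (0.01 to 0.71) with overlapping arrays, Itgb7 by 0.34 ± 0.16 (-0.01 to 0.69) and Itgb1 by -0.20 ± 0.14 (-0.50 to 0.10), all at an adjusted p of 0.99996. Genotypes did not overlap on the Th17 arrays for 3 of the 10 (Itgb7 higher, Itga6 and Itgb1 lower), against 32.9% of all genes.

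Averaged over both subsets, Itgb7 had the largest absolute Tet2 difference of the 10, 0.37 ± 0.12 (0.12 to 0.62, limma adjusted p = 0.855), and it was above wild-type in both subsets. The average was -0.26 ± 0.09 for Itga6, 0.20 ± 0.08 for Itgb3 and -0.21 ± 0.10 for Itgb1 (adjusted p = 0.901, 0.901 and 0.912). Here limma called 0 of 10 against 0% of all genes, with 3 of the 10 and 1093 of all genes at an unadjusted p under 0.05. For the difference of the Tet2 effects between subsets it also called 0 of 10 against 0% of all genes (2 of 10 and 894 of all genes at an unadjusted p under 0.05). Besides Itga6, that difference was -0.45 ± 0.16 (-0.80 to -0.10) for Itgb3 and 0.37 ± 0.23 for Itga4, both at an adjusted p of 0.999. The genotype comparisons and the subset comparisons share arrays, so a group that lies high or low enters more than 1 of them.

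**Figure D3:**
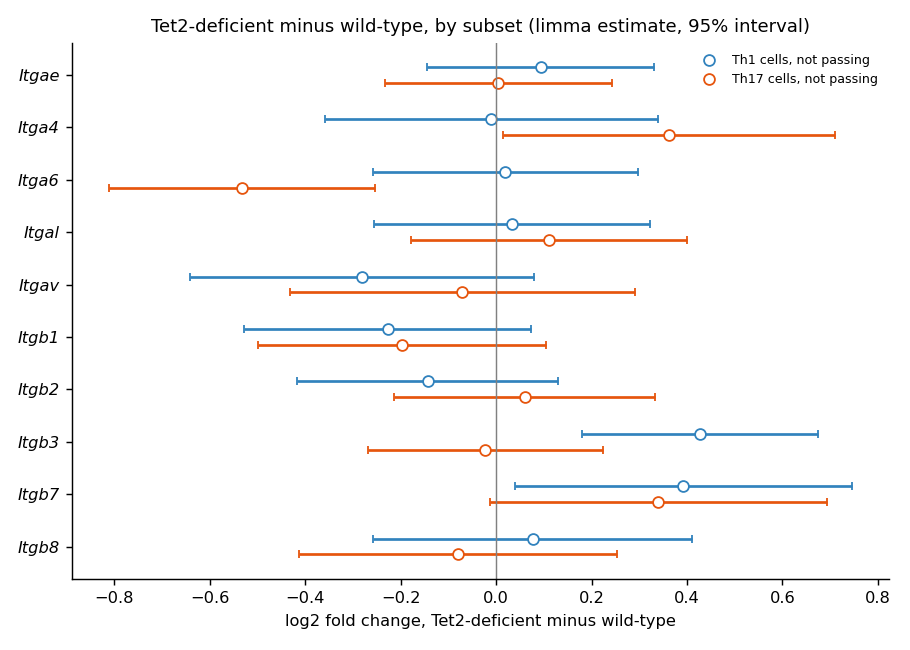
Tet2-deficient minus wild-type log2 difference (horizontal axis) of the 10 integrin genes in Th1 and in Th17 cells; points are limma estimates and bars their 95% intervals, not adjusted for the number of genes. All points are open because none passed, and the estimates run from -0.53 (Itga6, Th17) to 0.43 (Itgb3, Th1).

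Of the 18 other integrin subunits, 1 was higher and 2 were lower in wild-type Th17 than Th1 cells, with a median difference of -0.13 (all genes -0.03). Over all genes 8.4% were called in wild-type and 10.1% in Tet2-deficient cells. Itga3, another laminin-binding alpha chain, was the one that rose, from 8.21 and 8.31 in wild-type Th1 to 9.37 and 9.88 in wild-type Th17 cells, and from 8.51 and 8.44 to 9.75 and 9.65 in Tet2-deficient cells. Its arrays did not overlap between subsets, and the difference was 1.36 ± 0.15 (limma adjusted p = 0.000163) and 1.22 ± 0.15 (adjusted p = 0.000352). The lower ones in wild-type cells were Itga8 (-0.37) and Itgad (-0.50), which, like Itgae, lay below the median gene on all 8 arrays, a signal too low to show that they were expressed. In Tet2-deficient cells 1 was higher and 1 lower, the latter being Itga9 (-0.72), above the median gene on 2 of 8 arrays.

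Genes of the cytoplasmic machinery that acts on integrins were called only as higher in Th17 cells. The list was not sorted into genes that promote and genes that restrain binding, so its counts give no direction of integrin activity. Of 42 adaptors and activators measured, 6 were higher and 0 lower in wild-type Th17 cells (median 0.08), while the Tet2-deficient comparison had 9 higher and 0 lower (median 0.12). Over all genes 8.4% and 10.1% were called, of which 59.1% and 62.5% were higher in Th17 cells, with medians of -0.03 and -0.03. In a fit of only the genes with a mean signal at or above the median, the lean was stronger. There 73.2% and 72.1% of called genes were higher, with medians over the fitted genes of 0.088 and 0.075. A larger share of genes was called in that fit than the 8.4% and 10.1% over all genes. Skap1, an adaptor that carries T cell receptor signals to LFA-1, read 7.41 and 7.33 in wild-type Th1 and 8.77 and 8.76 in wild-type Th17 cells, a difference of 1.39 ± 0.12 (limma adjusted p = 1.9e-05). Its binding partner Fyb (also called ADAP) read 8.45 and 8.61 against 9.84 and 9.79, a difference of 1.28 ± 0.14 (adjusted p = 0.000115). Cyth1, a cytohesin that binds the Itgb2 tail, differed by 0.93, Flna, a filamin that links integrin tails to actin, by 0.64, Ptk2b, a focal adhesion kinase, by 0.55 and Rassf5, the Rap1 effector RAPL, by 0.53. In Tet2-deficient cells the differences of Skap1 and Fyb were 1.47 and 1.46.

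Ligands moved both ways. Of 35 measured, 3 were higher and 4 lower in wild-type Th17 cells, where 8.4% of all genes were called. Pecam1, an adhesion protein reported to bind Itgav with Itgb3, was higher by 1.32, and Adam9 and Icam2, the latter an LFA-1 ligand, by 0.61 and 0.40. Lower were the basement membrane genes Nid1 (-0.82) and Lama5 (-0.71), the matrix gene Fbln1 (-0.57) and Icam1 (-0.77), the main LFA-1 ligand, which read 8.81 and 8.73 in wild-type Th1 and 7.87 and 8.12 in wild-type Th17 cells. In Tet2-deficient cells 3 were higher and 3 lower (10.1% of all genes called), with Icam1 at -0.95. Pecam1 is also 1 of the 4 stromal and endothelial markers, whose summed log2 level was 8.91 to 9.15 in Th1 and 9.19 to 9.36 in Th17 arrays with 23 of 32 values above the median gene. Pecam1 was the only 1 of the 4 called: their median difference was -0.05 (wild-type) and -0.13 (Tet2-deficient), and that of Col1a1, a collagen gene of fibroblasts, was -0.23 and -0.19.

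Among 25 other adhesion and homing receptors, 3 were higher and 2 lower in wild-type Th17 cells. The higher ones were Ccr6 (1.29), the chemokine receptor typical of Th17 cells, S1pr1 (0.85), the receptor for egress from lymphoid tissue, and Cd96 (0.77), and the lower ones Cd82 (-0.61) and Ccr7 (-0.50), the lymph node homing receptor. In Tet2-deficient cells 5 were higher and 3 lower. The shares of all genes called were 8.4% (wild-type) and 10.1% (Tet2-deficient).

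The TGF-beta genes that passed were all higher in Th17 cells, where Itgav and Itgb8 were lower. Of 20 genes of TGF-beta production, activation and reception, 7 were higher and 0 lower in wild-type Th17 cells (median 0.31), and 5 and 0 in the Tet2-deficient comparison (median 0.25), against the same 8.4% and 10.1% of all genes. Differences below 0, none of them called, numbered 7 and 8. Among these was Tgfb1, a gene of TGF-beta itself. Its Th17 and Th1 means were 9.97 and 10.16 (wild-type) and 9.89 and 10.31 (Tet2-deficient). Called genes of the whole array also leaned to higher in Th17 cells, as given above for the adaptors. Smad3, the signal transducer, read 8.14 and 8.45 in wild-type Th1 and 9.91 and 10.15 in wild-type Th17 cells, a difference of 1.73 ± 0.15 (limma adjusted p = 1.81e-05). The receptor Tgfbr1 differed by 1.15 and Lrrc32, a protein that displays latent TGF-beta on the cell surface, by 0.82. In Tet2-deficient cells these 2 did not pass (Tgfbr1 0.41, adjusted p = 0.0686, and Lrrc32 0.56, adjusted p = 0.0633), while Smad3 passed at 1.51.

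Of 14 transcription factors listed as regulators of integrin genes in T cells, 7 were higher and 3 lower in wild-type Th17 cells, against 6 and 4 in the Tet2-deficient comparison. Over all genes 8.4% and 10.1% were called, and this list holds factors known to define the subsets. Runx3, which takes part in Itgae expression, read 8.70 and 8.82 in wild-type Th1 and 7.69 and 8.06 in wild-type Th17 cells, a difference of -0.88 ± 0.13 (limma adjusted p = 0.00161), and Runx1 differed by 0.96. The subset-defining factors Tbx21 and Maf differed by -2.58 and 3.67. Limma called 0 genes of these 6 lists in either genotype comparison, with 0 to 3 genes of each list at an unadjusted p under 0.05. Of all 19938 genes, 1206 in Th1 and 824 in Th17 cells were at that level.

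**Figure D4:**
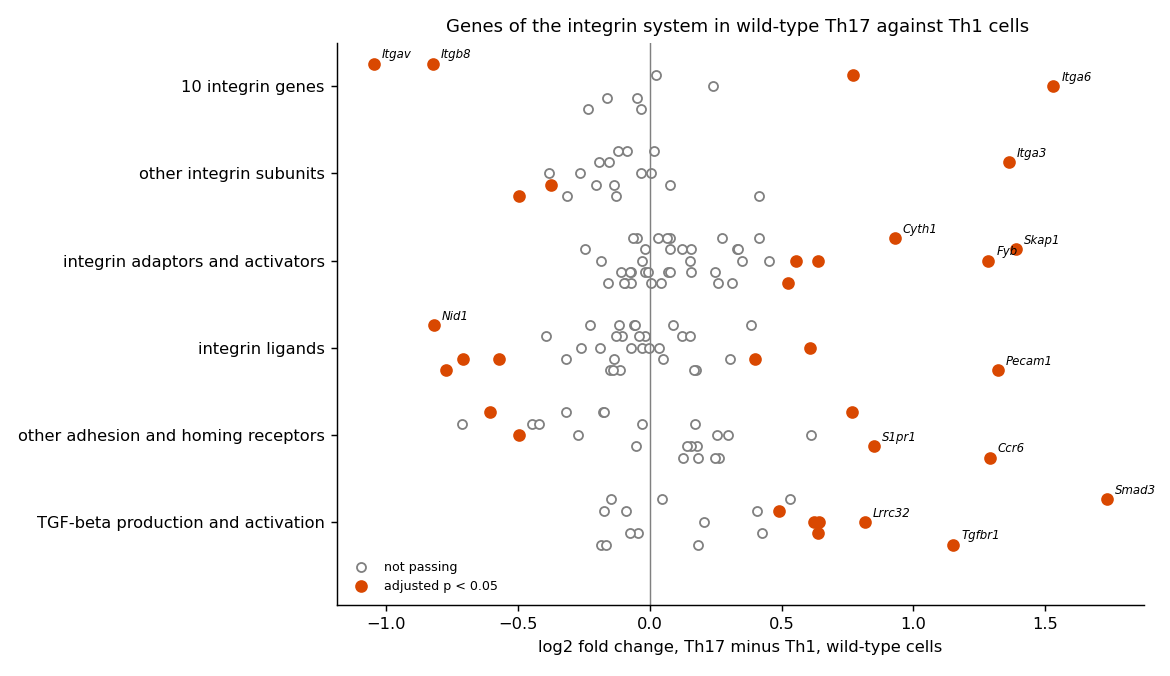
Th17 minus Th1 log2 difference in wild-type cells (horizontal axis) of every measured gene of the 10 integrin genes and 5 of the lists (rows; vertical offsets only separate points); filled points passed a limma adjusted p of 0.05. The called adaptors and TGF-beta genes all lie to the right of 0, while the other rows have called genes on both sides.

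Windows before a listed start site were at hand for 5 of the 10 genes. Those of the 3 called between Th17 and Th1 cells, Itgav, Itgb8 and Itgb7, are shown. CG is marked because Tet2 acts on cytosines of CG pairs, but no genotype comparison called any of these genes. Each line is the 250 bases before the listed start, from RefSeq on GRCm38.p6, read 5′ to 3′ on the gene's strand, with CG in capitals. The windows are chr2:83724147-83724396 (plus strand, Itgav), chr12:119238277-119238526 (minus strand, Itgb8) and chr15:102231936-102232185 (minus strand, Itgb7). The Itgb8 window abuts the start side of the gene's span (119162803-119238276). Those of Itgav (span 83722303-83806917) and Itgb7 (span 102215994-102233405) lie inside the span, past its outermost start. For Itgav and Itgb7 the sequence is thus not upstream of the whole gene.
Itgav: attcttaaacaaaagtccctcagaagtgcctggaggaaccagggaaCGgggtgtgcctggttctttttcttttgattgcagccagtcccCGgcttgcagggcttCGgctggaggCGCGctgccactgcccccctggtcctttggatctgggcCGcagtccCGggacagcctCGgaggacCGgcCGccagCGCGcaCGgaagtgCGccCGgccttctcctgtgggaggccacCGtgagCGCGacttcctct
Itgb8: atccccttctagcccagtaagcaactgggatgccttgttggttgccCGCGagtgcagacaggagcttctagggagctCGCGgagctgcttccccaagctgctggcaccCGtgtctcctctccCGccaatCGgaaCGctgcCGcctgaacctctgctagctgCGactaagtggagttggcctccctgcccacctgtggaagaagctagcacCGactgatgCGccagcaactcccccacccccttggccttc
Itgb7: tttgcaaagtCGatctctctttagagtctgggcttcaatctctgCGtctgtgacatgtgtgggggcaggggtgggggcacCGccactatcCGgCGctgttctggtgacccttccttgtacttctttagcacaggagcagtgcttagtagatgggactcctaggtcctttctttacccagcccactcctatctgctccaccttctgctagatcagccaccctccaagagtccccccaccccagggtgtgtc

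Counts of CG were 18 for Itgav, 12 for Itgb8 and 5 for Itgb7, and 21.7%, 33.5% and 55.6% of 32851 such windows held at least as many (median 6). Of the genes not called, Itgb1 had 21 and Itga4 had 6. The core Runx motif TGTGGT, searched on both strands, was in 14.0% of all windows and, among the 5, in that of Itga4 alone. The arrays measured no methylation, so these counts describe the sequence only.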

How the data were processed

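RNA of 8 arrays was measured, and per the submitters' processing notes GCOS, RMA and Affymetrix Expression Console were used. The deposited values are log2 signals per probe set, taken as the authors gave them; array medians were 6.53 to 6.61. Of 35556 probe sets, 21789 had 1 symbol in the 2016 platform annotation, 1621 had several and 12146 none listed; the highest mean probe set was kept for each of 19938 genes (999 had more than 1). Probe sets differ in affinity, so no gene was ranked against another by level. Each array's median gene served as a rough guide to low signal, and marker levels were summed per array as descriptions. The build is not given in the sources used here.

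All arrays were fitted together with limma 3.58.1 (R 4.3.3), 1 mean per group, eBayes with an intensity trend (4 residual and 8.32 prior degrees of freedom), and Benjamini-Hochberg adjustment over all genes. The script was tested on simulated data. With 2 arrays a group the number of arrays limits the precision. Within-group correlations were 0.990 to 0.994.

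The members and gene lists were chosen with earlier results of these data known. All 10 integrin genes are named; from each list, genes called in a comparison, up to 3 a direction by size, and for the integrin gene with the largest subset difference the 3 nearest patterns. Several more called genes were named after their values were seen. Some genes of the lists are not reported here. The female share was taken from linear Xist signal.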

Additional observations from a re-analysis of the deposited data

How the results depend on the processing

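Across 19 alternatives for each comparison of 2 groups (all planned), Itga6 passed in every one in both genotypes, Itgav in 19 in wild-type and 15 in Tet2-deficient cells, Itgb8 in 17 and 19, and Itgb7 in 16 and 14; no genotype alternative called an integrin gene. Testing all probe sets left 2 calls in wild-type and 2 in Tet2-deficient cells, and the female share as a covariate left 2 in Tet2-deficient cells (Itgav -0.59, adjusted p = 0.163; Itgb7 0.67, adjusted p = 0.145). Leaving out 1 array gave 2 to 4 calls in each genotype, with 2 without wild-type Th17 replicate 2, Tet2-deficient Th17 replicate 2 or Tet2-deficient Th1 replicate 1. With the replicate block, 4 and 4 integrin genes passed (1398 and 1767 of all genes) and no integrin call changed; deviations of same-numbered arrays correlated at -0.19 to 0.06, so the numbers were not taken as pairs.

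Small uncalled wild-type subset differences changed sign: Itgae was 0.034 after quantile normalization and 0.0033 after median centring, and Itgal -0.020 after quantile normalization. Leaving out 1 array gave -0.26 to 0.17 for Itga4, -0.11 to 0.16 for Itgal and -0.075 to 0.011 for Itgae, and -0.051 to 0.13 for Itgb2 in Tet2-deficient cells. All genes called numbered 1675 in wild-type cells, 1101 with the compared groups alone, 435 with all probe sets tested (each gene at its kept probe set), 663 without wild-type Th17 replicate 2 and 1029 without wild-type Th1 replicate 1. In Tet2-deficient cells they were 2015, 683 with all probe sets tested, 726 with the covariate, 801 and 1103 without Tet2-deficient Th17 replicate 1 or 2, and 933 and 1204 without Tet2-deficient Th1 replicate 1 or 2; median centring gave 1598 higher and 604 lower in place of 1260 and 755. Over the alternatives the genotype comparison called 0 to 2 of all genes in Th1 and 0 to 4 in Th17 cells; without Tet2-deficient Th17 replicate 1 it called 5 for the average of the subsets and 4 for their difference. Uncalled genotype differences of integrin genes changed sign 9 times over these alternatives in Th1, 10 times in Th17, 6 times for the average and 12 times for the difference of subsets.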
